A study of Rattus norvegicus with 15 samples.

Results

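Krüppel-like factors are zinc finger transcription factors, and 9 of them (*Klf2*, *Klf3*, *Klf4*, *Klf5*, *Klf6*, *Klf7*, *Klf10*, *Klf13* and *Klf15*) are described here in the inferior colliculus (IC) of rats bred for audiogenic seizures. They were taken by gene symbol, with the brightest probe set of each gene over all arrays, and are 9 of the 14506 genes measured. Another 11 Klf and Sp family members were measured. The IC is the midbrain auditory nucleus in which audiogenic seizures start. The stimulated audiogenic group (WAR S, 5 arrays) held Wistar audiogenic rats exposed to a loud sound, and the stimulated control group (Wistar S, 2 arrays) held Wistar albino rats exposed to the same sound. Per the labels, tissue was taken 60 min after the seizures. The naïve groups were WAR N (4 arrays) and Wistar N (4 arrays), which received no sound. All rats were males of 12 weeks, and per the labels the WAR came from a breeding colony in Ribeirão Preto and the Wistar rats from a commercial supplier, whereas the methods name 1 facility for both. If the labels hold, strain and colony cannot be told apart. Within the stimulated rats, seizure and strain cannot be told apart.

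The Krüppel-like factors share zinc fingers that bind GC-rich and CACCC sequences, and they differ in the rest of the protein, which recruits coactivators or corepressors. Several of them are early response genes that growth factors, shear stress or neuronal activity switch on, and in blood vessels, glia and neurons different members set the state of the cell. From work mainly in mice, *Klf2* and *Klf4* keep the endothelium quiescent, *Klf6* and *Klf7* take part in neurite growth, and *Klf15* is induced by glucocorticoids. *Klf10*, described first as a TGF-β inducible early gene, encodes a repressor. In whole tissue, a change of cell proportions and a change of RNA per cell cannot be told apart.

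The sequence just upstream of the annotated start is shown for *Klf5* and *Klf6*, to show where the family's own recognition sequences lie in the genes that encode it. Of the 9 genes, 6 had an entry among the RefSeq promoters of the build GRCr8, and in *Klf5* and *Klf6* the start was also the outer end of the annotated gene. Capitals mark matches on either strand to CACCC, the GC box GGGCGG, the cyclic AMP response core TGACG and the CArG box of serum response factor. *Klf5* lies on the forward strand (chr15:82471831-82472080) and *Klf6* on the reverse strand (chr17:69458479-69458728), and both are printed 5′ to 3′ on the strand of the gene.
Klf5: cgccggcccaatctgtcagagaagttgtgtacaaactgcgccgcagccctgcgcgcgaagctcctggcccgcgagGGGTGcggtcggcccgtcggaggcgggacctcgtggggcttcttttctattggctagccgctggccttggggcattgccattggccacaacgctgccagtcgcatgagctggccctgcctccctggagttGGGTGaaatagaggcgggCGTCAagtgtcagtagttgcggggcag
Klf6: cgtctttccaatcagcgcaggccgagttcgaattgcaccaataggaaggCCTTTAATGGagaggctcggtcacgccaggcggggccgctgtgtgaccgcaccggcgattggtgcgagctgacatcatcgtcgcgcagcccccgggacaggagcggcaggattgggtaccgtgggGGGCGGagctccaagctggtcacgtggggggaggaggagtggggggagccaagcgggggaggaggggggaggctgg
*Klf5* had 2 CACCC matches, both read on the opposite strand, and 1 TGACG match, while *Klf6* had 1 GC box and 1 CArG box. Over the 33469 promoters in the RefSeq table, 49.2% held CACCC, 30.5% held GGGCGG, 18.2% held TGACG and 1.5% held a CArG box. A match describes the letters of the window and shows no binding.

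Values are log2 signals made by RMA, a method that subtracts background, equalizes the arrays and combines the probes of each probe set. A value is compared only with the same probe set in the other strain, because the stimulated arrays appeared to have been normalized apart from the naïve ones: 2675 to 3286 probe sets held identical values in each pair of stimulated arrays, 2 to 13 in each pair of naïve arrays and 0 in each mixed pair. The tissue label was checked with *Slc17a6* and *Gad1*, transporter and enzyme genes of the excitatory and inhibitory neurons of the IC. Their mean log2 values were between 10.1 and 11.6 in the 4 groups. As signs of neighbouring tissue, *Gabra6* and *Slc17a7* were read. The cerebellar gene *Gabra6* averaged 5.57 in WAR S, against 6.26 in Wistar S (log2 fold change −0.68, unadjusted p = 0.000497, adjusted p = 0.0756 by limma). *Slc17a7*, a gene of excitatory neurons of both forebrain and cerebellum, averaged 6.35 in WAR S, against 6.90 in Wistar S (−0.55, unadjusted p = 0.0109, adjusted p = 0.392 by limma). Neither passed, and both were lower in WAR S without overlap. The naïve rats had log2 fold changes of 0.09 for *Gabra6* and −0.16 for *Slc17a7*. The array Wistar N replicate 1 stood apart: 71.9% of genes lay outside the range of the other 3 arrays of its group, against 35.8% to 51.6% for each of these. Some results that use naïve rats, such as those of *Klf3* and *Klf7*, are therefore also given without it. The calls of the gene lists in naïve rats are given only with it. The running numbers in the sample descriptions fall into 2 series, called label sets here. Both Wistar S arrays belong to label set 1, while WAR S replicates 3 and 4, WAR N replicates 3 and 4 and Wistar N replicates 2 and 3 make up label set 2. The sources do not say what the label sets stand for. Nothing says either whether each array held 1 rat, so the p-values measure the spread between arrays.

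*Klf10* was the one member that passed the test between the strains. In stimulated rats it was overexpressed in WAR, and in naïve rats no strain difference was detected. The log2 values of *Klf10* (probe set 10903459) were 7.91, 7.91, 8.37, 8.31 and 7.91 in WAR S, against 7.19 and 7.44 in Wistar S. All WAR S arrays lay above both Wistar S arrays. *Klf10* averaged 8.08 ± 0.24 in WAR S (SD, n = 5), against 7.32 ± 0.18 in Wistar S (SD, n = 2). This log2 fold change of 0.76 (SE 0.15, 95% interval 0.44 to 1.09), or 1.70-fold, passed the test of limma with an adjusted p = 0.0466. *Klf10* ranked 59 of the 14506 genes by p, and in this comparison 0.214% of all genes passed as higher and 0.200% as lower. The value stood just inside the threshold of 0.05. It lost the call in 19 of 25 other settings, among them the omission of either Wistar S array (adjusted p = 0.572 without replicate 1 and 0.350 without replicate 2), while the log2 fold change stayed between 0.59 and 0.89 in all 25. The main fit shared its estimate of the spread between stimulated and naïve arrays. Within groups, *Klf10* had an SD of 0.23 in stimulated and 0.16 in naïve arrays. A limma fit of the stimulated groups alone also lost the call (adjusted p = 0.0825).

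In naïve rats the log2 values of *Klf10* were 7.40, 7.41, 7.26 and 7.32 in WAR N, against 7.65, 7.50, 7.39 and 7.14 in Wistar N. The WAR N arrays all lay within the range of Wistar N. The log2 fold change was −0.08 (SE 0.13, 95% interval −0.35 to 0.20, adjusted p = 0.720 by limma). The strain difference was thus 0.84 larger on the log2 scale in stimulated than in naïve rats (SE 0.20), with an adjusted p = 0.108 in limma over all genes, which did not pass. Without Wistar N replicate 1 this difference was 0.76 and passed (adjusted p = 0.0114), in a fit in which 10.5% of all genes passed as higher and 9.85% as lower. With all arrays, 0.0620% of genes passed as higher and 0.0414% as lower for the difference of the strain effects, and 0 of the 9 members passed, with 1 (*Klf10*) at an unadjusted p under 0.05.

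**Figure D1:**
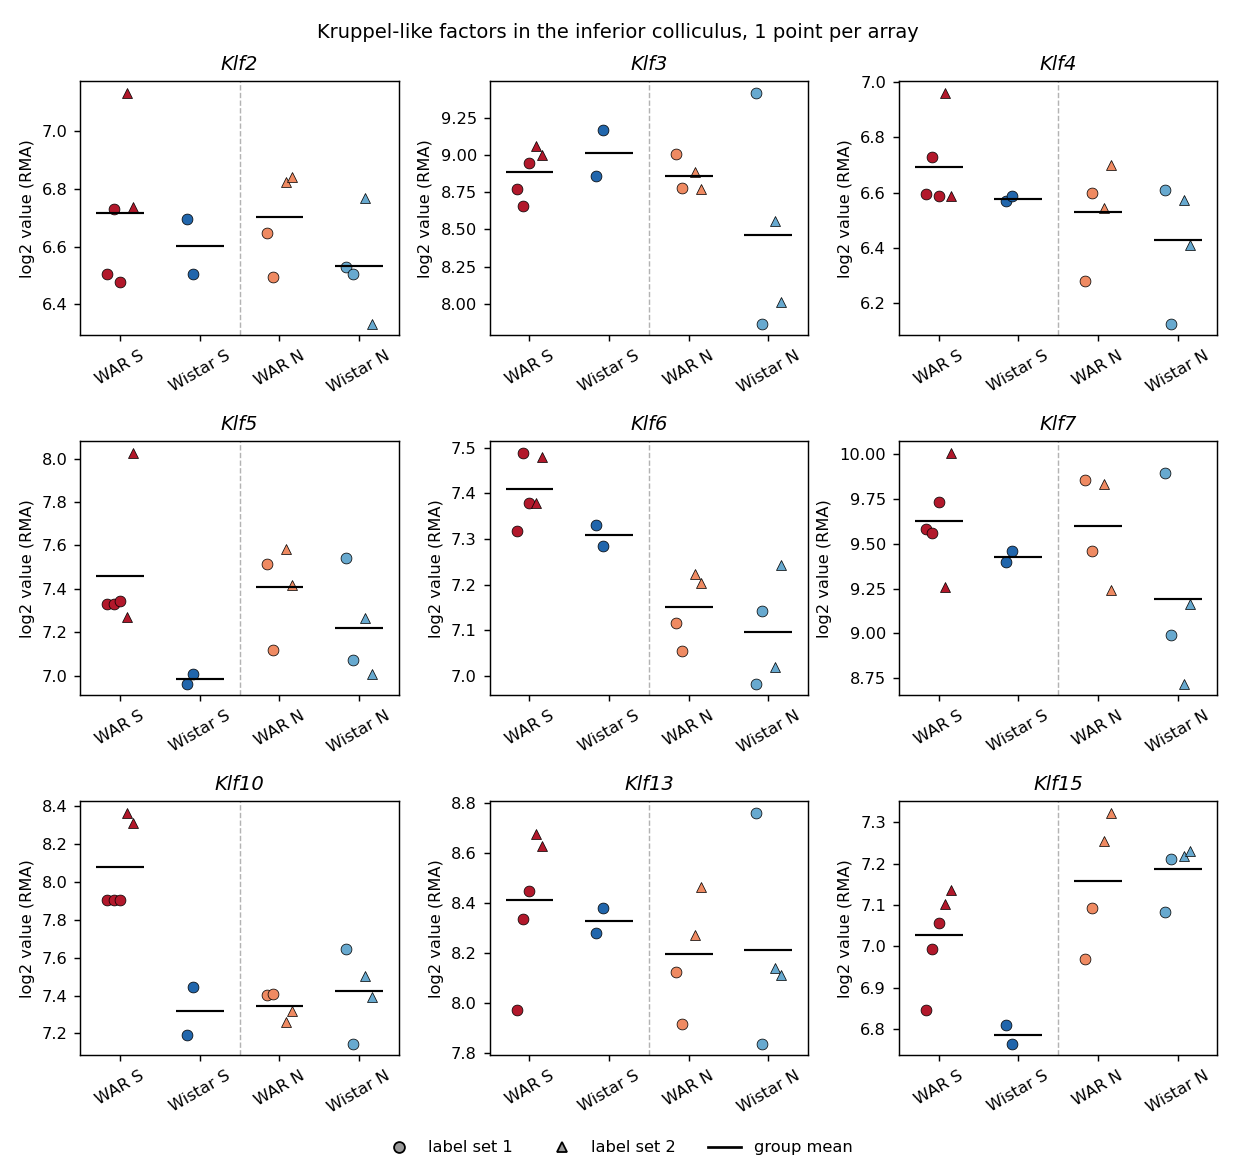
Log2 value (RMA) of the 9 Krüppel-like factors in each array of WAR S, Wistar S, WAR N and Wistar N, with circles for label set 1, triangles for label set 2 and a line at each group mean; the dashed line parts the stimulated from the naïve arrays, whose levels are not comparable. *Klf10* lay at 7.91 or above in the 5 WAR S arrays and at 7.44 or below in both Wistar S arrays.

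The *Klf10* values of WAR S followed the label set. WAR S replicates 1, 2 and 5, of label set 1, held exactly the same value, 7.91, and replicates 3 and 4, of label set 2, lay 0.43 higher on average. The SD, SE and p of *Klf10* count the tied values as separate readings. Within label set 1 alone, which holds both Wistar S arrays, the log2 fold change was 0.59 (adjusted p = 0.308 by limma), and with the label set as a block it was 0.71 (adjusted p = 0.0635). In WAR N the order was the other way, with *Klf10* 0.11 lower in label set 2 than in label set 1. Among the members, *Klf2*, *Klf3*, *Klf10*, *Klf13* and *Klf15* were higher in label set 2 of WAR S without overlap, by 0.15 to 0.43, and over all genes 9.55% were higher in this way and 16.9% lower. In WAR N, *Klf2*, *Klf6*, *Klf13* and *Klf15* were higher in label set 2 without overlap, by 0.13 to 0.35, and *Klf10* was lower, where 24.5% of all genes were higher and 22.0% lower. The part of the label set in the *Klf10* result beyond these values was not tested.

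The 3 genes whose values ran most like those of *Klf10* over the 15 arrays, after subtraction of the stimulated or naïve mean, were *Egr3*, *Rnasek* and *Plk3*. *Egr3* encodes an activity-induced zinc finger transcription factor and had r = 0.88 with *Klf10* (0.90 over the 7 stimulated and 0.83 over the 8 naïve arrays). *Rnasek*, which encodes a small membrane protein named ribonuclease kappa, had r = 0.85 (0.92 over the stimulated and 0.79 over the naïve arrays). *Plk3*, which encodes a stress-responsive kinase, had r = 0.84 (0.96 over the stimulated and 0.67 over the naïve arrays). These values describe arrays that share strain, label set and normalization. *Egr3* was also overexpressed in WAR S, with a log2 fold change of 1.05 over Wistar S (adjusted p = 0.0212 by limma) and of −0.16 in naïve rats. The log2 fold changes of *Rnasek* (0.93, adjusted p = 0.137) and *Plk3* (0.30, adjusted p = 0.309) in stimulated rats did not pass.

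*Klf5*, which in mice promotes the proliferation of epithelial and smooth muscle cells, had the second largest difference in stimulated rats. Its log2 values (probe set 10835837) were 7.33, 7.33, 7.27, 8.03 and 7.34 in WAR S, against 6.96 and 7.01 in Wistar S. The groups did not overlap, and WAR S replicate 4 stood well above the other 4 WAR S arrays. The log2 fold change was 0.48 (SE 0.19, 95% interval 0.06 to 0.89), which did not pass in limma (unadjusted p = 0.0285, adjusted p = 0.598). A second, dimmer probe set of *Klf5* (10781829) gave 5.55, 5.55, 5.62, 5.55 and 5.55 in WAR S, against 5.56 and 5.24 in Wistar S. Here the groups overlapped, with a log2 fold change of 0.16 (SE 0.090). In this probe set, WAR S replicates 1, 2, 4 and 5 held exactly the same value. In naïve rats the brighter probe set gave 7.51, 7.12, 7.58 and 7.42 in WAR N, against 7.54, 7.26, 7.01 and 7.07 in Wistar N. The log2 fold change was 0.19 (SE 0.16, adjusted p = 0.453 by limma).

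*Klf15* is a glucocorticoid-induced regulator of metabolism that is also present in astrocytes. Its log2 values were 6.84, 6.99, 7.10, 7.14 and 7.06 in WAR S, against 6.81 and 6.76 in Wistar S, so the groups did not overlap, though the lowest WAR S array lay close to the highest Wistar S array. The log2 fold change was 0.24 (SE 0.10, 95% interval 0.02 to 0.46), with an unadjusted p = 0.0313 and an adjusted p = 0.614 in limma. In naïve rats *Klf15* had 6.97, 7.09, 7.25 and 7.32 in WAR N, against 7.08, 7.22, 7.23 and 7.21 in Wistar N. These ranges overlapped, with a log2 fold change of −0.03 (SE 0.085, adjusted p = 0.856). *Klf13*, a repressor of the BTEB subgroup of the family to which *Klf9* also belongs, had 7.97, 8.34, 8.68, 8.63 and 8.45 in WAR S, against 8.28 and 8.38 in Wistar S, and a log2 fold change of 0.08 (SE 0.22). In naïve rats the log2 fold change of *Klf13* was −0.02 (SE 0.19, adjusted p = 0.957), over 7.92 to 8.46 in WAR N, against 7.83 to 8.76 in Wistar N. The WAR S and Wistar S arrays of *Klf13* overlapped, as did the naïve ones.

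The endothelial factors *Klf2* and *Klf4* did not pass in either comparison. *Klf2* had 6.50, 6.73, 7.13, 6.74 and 6.48 in WAR S, against 6.70 and 6.51 in Wistar S, with a log2 fold change of 0.11 (SE 0.16). *Klf4* had 6.59, 6.73, 6.96, 6.59 and 6.59 in WAR S, against 6.57 and 6.59 in Wistar S, with a log2 fold change of 0.11 (SE 0.14). For both genes WAR S replicate 3 was the highest array, and for *Klf4* the other values lay so close that the absence of overlap rested on the fourth decimal. In naïve rats *Klf2* lay between 6.49 and 6.84 in WAR N and between 6.33 and 6.77 in Wistar N, with a log2 fold change of 0.17 (SE 0.14, adjusted p = 0.417 by limma). *Klf4* lay between 6.28 and 6.70 in WAR N and between 6.13 and 6.61 in Wistar N, with a log2 fold change of 0.10 (SE 0.12, adjusted p = 0.589). The second probe set of *Klf4* (10873814) gave log2 fold changes of 0.29 (SE 0.16) in stimulated and −0.13 (SE 0.13) in naïve rats, so that its sign differed from the brighter one in naïve rats.

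*Klf6* and *Klf7*, of which *Klf7* is needed for axon growth of sensory neurons in mice, did not pass either. *Klf6* had 7.32, 7.49, 7.38, 7.48 and 7.38 in WAR S, against 7.33 and 7.29 in Wistar S, with a log2 fold change of 0.10 (SE 0.084). It was the least variable of the 9, with an SD within the groups of 0.067 in stimulated arrays and 0.10 in naïve arrays, where the median of all genes was 0.094 and 0.18. In naïve rats *Klf6* had a log2 fold change of 0.05 (SE 0.071), with 7.06 to 7.22 in WAR N, against 6.98 to 7.24 in Wistar N. *Klf7* had 9.58, 9.56, 9.26, 10.01 and 9.73 in WAR S, against 9.40 and 9.46 in Wistar S, with a log2 fold change of 0.20 (SE 0.26). The lowest WAR S array of *Klf7* lay below both Wistar S arrays and the other 4 lay above them.

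*Klf3* encodes a repressor that acts through the corepressor CtBP, and with *Klf7* it had the largest strain difference in naïve rats. Its log2 values were 9.01, 8.78, 8.89 and 8.77 in WAR N, against 9.42, 8.56, 8.01 and 7.87 in Wistar N. The 4 WAR N arrays lay close together, while Wistar N replicate 1 lay above all of them and the other 3 Wistar N arrays below all of them. The log2 fold change was 0.40 (SE 0.25, 95% interval −0.14 to 0.94, adjusted p = 0.279 by limma). *Klf7* had 9.86, 9.46, 9.83 and 9.24 in WAR N, against 9.89, 8.72, 9.16 and 8.99 in Wistar N, with a log2 fold change of 0.41 (SE 0.22, adjusted p = 0.214). Here too Wistar N replicate 1 was the highest array and the other Wistar N arrays lay below all WAR N arrays. Without that array the log2 fold change was 0.72 for *Klf3* (SE 0.15, adjusted p = 0.00138) and 0.64 for *Klf7* (SE 0.17, adjusted p = 0.00865), and both passed as higher in WAR N. In that fit 22.6% of all genes passed as higher and 18.5% as lower. In stimulated rats *Klf3* had 8.77, 8.66, 9.06, 9.00 and 8.95 in WAR S, against 8.86 and 9.17 in Wistar S, and a log2 fold change of −0.13 (SE 0.29). The SEs of *Klf3* rest on a spread shared between stimulated and naïve arrays. Within groups its SD was 0.18 in stimulated and 0.50 in naïve arrays. The difference of the strain effects of *Klf3* was −0.53 (SE 0.39, adjusted p = 0.548) with all arrays and −0.85 (adjusted p = 0.0141) without Wistar N replicate 1.

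Over the 9 members, 8 had a positive log2 fold change in stimulated rats, with a median of 0.11, against a median of 0.01 over all genes. The ranges did not overlap for *Klf4*, *Klf5*, *Klf10* and *Klf15*, 4 of the 9, all higher in WAR S, where 12.4% of all genes were higher in this way and 8.22% lower. For *Klf4* this rested on 6.58724 in WAR S against 6.58714 in Wistar S, and for *Klf15* on 6.84 against 6.81. The dimmer probe set of *Klf5*, with mostly tied values in WAR S, overlapped. In naïve rats 6 of the 9 had a positive log2 fold change, with a median of 0.10, against 0.02 over all genes, and the ranges of all 9 overlapped, where 7.93% of all genes were higher and 5.51% lower without overlap. By the adjusted p of limma, 0 of the 9 passed in naïve rats (0 also at an unadjusted p under 0.05). Of all genes, 11.6% passed as higher and 9.38% as lower. These shares come from the fit that shared its spread between stimulated and naïve arrays. The median SD within groups over all genes was 0.094 in stimulated and 0.18 in naïve arrays. Fitted alone, the naïve groups gave 879 genes instead of 3037, and again 0 of the 9. The stimulated groups alone gave 274 genes instead of 60.

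**Figure D2:**
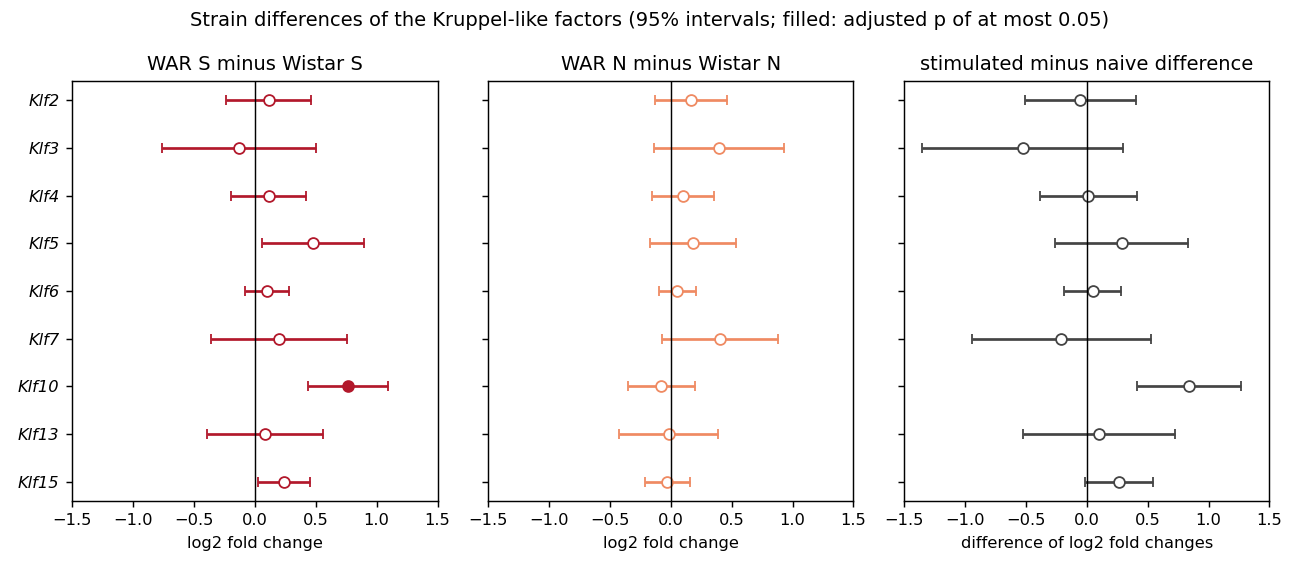
Log2 fold change of the 9 Krüppel-like factors with its 95% interval for WAR S minus Wistar S, for WAR N minus Wistar N and for the difference between both, with filled points for an adjusted p of at most 0.05. *Klf10* in stimulated rats, at 0.76, is the one filled point, and the interval of *Klf3* is the widest in all 3 panels. All intervals use a spread shared between stimulated and naïve arrays. Within groups, *Klf3* had an SD of 0.18 in stimulated and 0.50 in naïve arrays.

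Outside the 9 members, 6 of 8 other Klf genes and 5 of 9 Sp genes looked for were measured, and 0 of these 11 passed limma in stimulated rats, with 1 Klf gene and 1 Sp gene at an unadjusted p under 0.05. In naïve rats 2 of the 11 passed, a share close to that of all genes, of which 11.6% were higher and 9.38% lower. *Klf14*, which encodes a metabolic regulator of the same family, was lower in WAR N (log2 fold change −0.31, SE 0.092, adjusted p = 0.0274 by limma). *Sp4*, a neuronal member of the Sp family, was higher in WAR N (0.40, SE 0.073, adjusted p = 0.00285). Of 7 corepressor genes of the family, 0 passed in stimulated rats, and 0 at an unadjusted p under 0.05. In naïve rats *Ctbp2*, the partner of *Klf3*, was higher in WAR N (0.44, adjusted p = 0.000863), and the histone deacetylase gene *Hdac1* (−0.62, adjusted p = 0.0250) and the scaffold gene *Sin3a* (−0.46, adjusted p = 0.0220) were lower. Of 6 coactivator and ubiquitin ligase genes, 0 passed in stimulated rats by either p, and the acetyltransferase gene *Kat2b* was lower in WAR N (−0.61, adjusted p = 0.0466).

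Genes upstream of single members were read from 3 lists, beside a background in naïve rats of 11.6% of all genes higher and 9.38% lower. In stimulated rats none of the 3 held a gene past the threshold, nor one at an unadjusted p under 0.05, in limma. Of 8 genes of TGF-β and Smad signalling, the pathway that induces *Klf10* in other cells, 0 passed in stimulated rats, with a median log2 fold change of 0.00. In naïve rats 1 of these 8 passed, a share near that of all genes: *Smad2* (0.22, adjusted p = 0.0306 by limma) was higher in WAR N. Of 6 genes of the ERK5 and MEF2 pathway, which induces *Klf2* and *Klf4* under flow, 0 passed in stimulated rats, and the kinase gene *Map3k3* was higher in WAR N (0.36, adjusted p = 0.0257). Of 9 glucocorticoid-induced genes, 0 passed in stimulated rats, although 8 had positive values with a median of 0.33. Without sound 8 of the 9 were positive too, with a larger median of 0.48. In naïve rats the metallothionein gene *Mt2A* (2.0, adjusted p = 0.00260) and the sulfotransferase gene *Sult1a1* (0.89, adjusted p = 0.00145) were higher in WAR N. Of 10 vascular targets of *Klf2* and *Klf4*, 1 passed in stimulated rats, the angiopoietin receptor gene *Tek* (1.09, adjusted p = 0.0212), and the median was 0.12. In naïve rats *Tek* was higher in WAR N (0.79, adjusted p = 0.00447), and *Vcam1*, an adhesion molecule gene that *Klf2* and *Klf4* repress, was lower (−0.86, adjusted p = 0.0206). With a repressed target in this list, its median has no single expected direction.

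Since *Klf10* can be an early response gene, 27 immediate early genes were read beside it. In stimulated rats 22 of the 27 had positive log2 fold changes, with a median of 0.21, and *Egr3* alone passed. Their mean log2 level was 7.57 to 8.00 in WAR S, against 7.49 to 7.51 in Wistar S, and the highest arrays were WAR S replicates 3 and 4, those with the highest *Klf10*. Both are the WAR S arrays of label set 2. They were also the highest WAR S arrays for the glucocorticoid-induced genes, the TGF-β and Smad genes and the vascular targets of *Klf2* and *Klf4*. The same held for the endothelial, pericyte and smooth muscle, astrocyte, oligodendrocyte, and choroid plexus and ependymal genes. For the endothelial markers, replicate 4 (7.99) lay just above replicate 2 (7.97). It did not hold for the neuronal, microglial, red cell, cerebellar or forebrain genes. The part of the label set in this likeness was not tested. In naïve rats the median was −0.12, and 4 of the 27 passed, all lower in WAR N, where 9.38% of all genes were lower and 11.6% higher. *Dusp6* (−0.65, adjusted p = 0.0135 by limma), *Jun* (−0.61, adjusted p = 0.00705), *Ier5* (−0.54, adjusted p = 0.00987) and *Jund* (−0.35, adjusted p = 0.0413) were these 4.

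Markers of other cell types were read beside the members, against a background of 0.214% of all genes higher and 0.200% lower in stimulated rats, and 11.6% higher and 9.38% lower in naïve rats. These shares, and the calls of all gene lists, come from the fit with the shared spread. That fit passed more genes in naïve rats, and fewer in stimulated rats, than fits of the compared groups alone. Of 24 endothelial markers, 5 passed in stimulated rats, all higher in WAR S, led by the adhesion receptor gene *Adgrf5* (2.0, adjusted p = 0.0212 by limma), the membrane protein gene *Itm2a* (1.71, adjusted p = 0.000486), *Nostrin*, which binds nitric oxide synthase (1.31, adjusted p = 0.000545), and the efflux pump gene *Abcb1a* (1.18, adjusted p = 0.0109). In naïve rats 12 passed, all higher in WAR N. The mean log2 level of the 24 was 7.91 to 8.30 in WAR S, against 7.27 to 7.32 in Wistar S. It was 7.74 to 8.25 in WAR N, against 7.09 to 7.88 in Wistar N. The value of 7.88 is that of Wistar N replicate 1 and lies within the range of WAR N, and the other 3 Wistar N arrays had 7.09 to 7.15. Of 13 pericyte and smooth muscle markers, 0 passed in stimulated rats (4 at an unadjusted p under 0.05) and 2 in naïve rats, both higher in WAR N, a share near that of all genes. Of 13 microglial markers, 1 passed in stimulated and 5 in naïve rats, all higher in WAR, with a mean level of 8.04 to 8.29 in WAR S and 7.81 to 7.87 in Wistar S. Of 12 astrocyte markers, 0 passed in stimulated rats (4 at an unadjusted p under 0.05) and 5 were lower in WAR N, with a mean level of 10.9 to 11.2 in WAR S and 11.4 in both Wistar S arrays. Of 14 neuronal markers, 0 passed in stimulated rats (1 at an unadjusted p under 0.05), and 6 were lower and 1 higher in WAR N. Of 10 oligodendrocyte markers 0 passed in stimulated rats (1 at an unadjusted p under 0.05), and 3 were lower and 1 higher in WAR N. Of 3 red cell genes 1 passed in each comparison, lower in WAR, and of 8 choroid plexus and ependymal genes 0 passed in stimulated rats (2 at an unadjusted p under 0.05) and 1 was higher in WAR N. Of 5 cerebellar genes, 0 passed in stimulated rats (1 at an unadjusted p under 0.05), and *Cbln1* was lower in WAR N (−0.89, adjusted p = 0.00515), with a mean level of 6.85 to 6.95 in WAR S, against 7.03 to 7.20 in Wistar S. The genes measured of a forebrain list were *Slc17a7*, which is not particular to forebrain, and *Neurod6* (5.22 in WAR S, 5.39 in Wistar S). Both had lower levels in WAR S, without overlap, and 0 of these 2 passed (1 at an unadjusted p under 0.05). The part of these cell types and of neighbouring tissue in the values of the Krüppel-like factors was not tested.

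**Figure D3:**
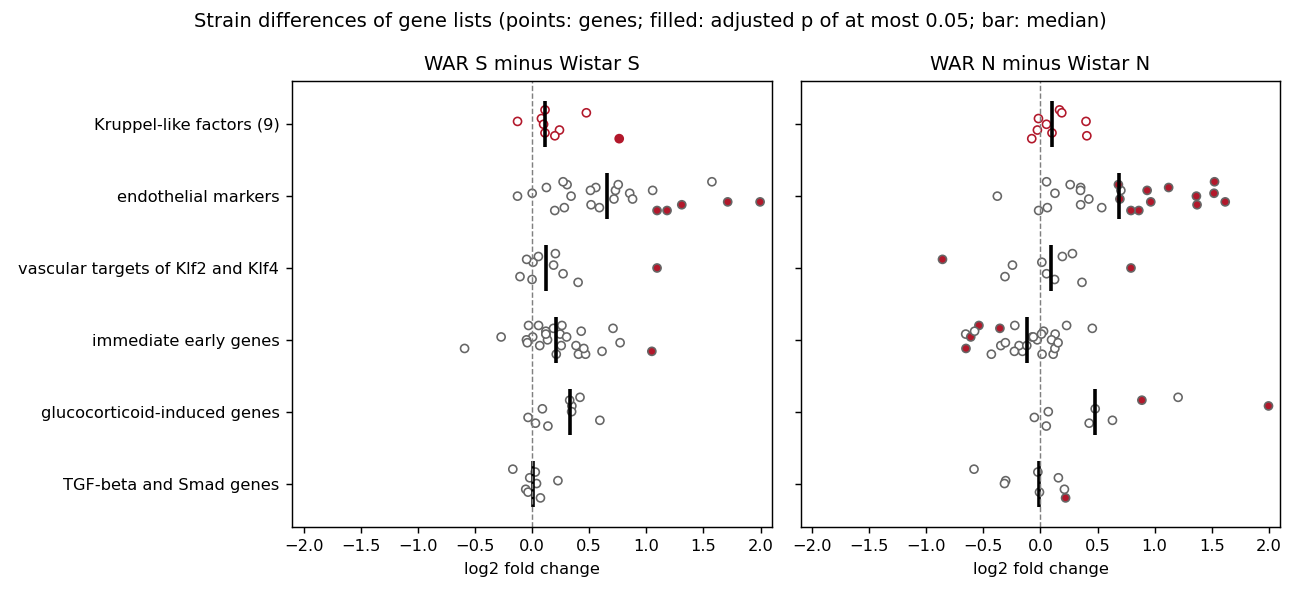
Log2 fold change of single genes (points, filled for an adjusted p of at most 0.05) and the median of each list (bars) for WAR S minus Wistar S and WAR N minus Wistar N. The endothelial markers have the highest median of the 6 lists in both panels, 0.65 and 0.69, while the medians of the 9 Krüppel-like factors are 0.11 and 0.10.

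The settings were compared for *Klf10* because its call stood close to the threshold. Besides both Wistar S arrays, the omission of any WAR S array (adjusted p = 0.0568 to 0.0870 by limma) or any WAR N array (0.0624 to 0.0708) lost the call, as did that of Wistar N replicate 2 (0.0605) or 3 (0.0671). Omission of Wistar N replicate 1 (0.0143) or 4 (0.0283) kept it. It was kept also without the dimmest genes, with the mean of the probe sets of a gene, with a trended and robust prior and with array weights.

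**Figure D4:**
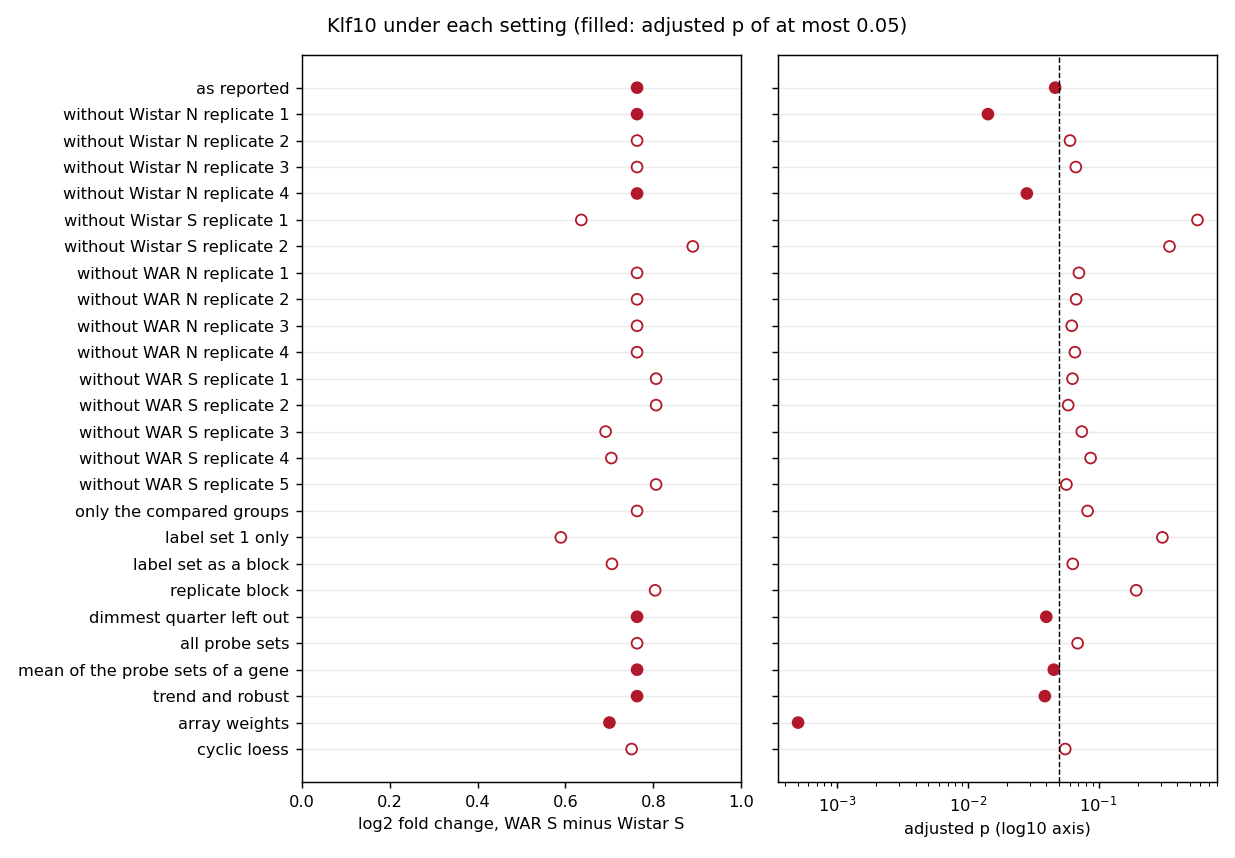
Log2 fold change of *Klf10* for WAR S minus Wistar S (left) and its adjusted p on a log10 axis (right) as reported and under 25 other settings, with filled points for an adjusted p of at most 0.05. The log2 fold change stays between 0.59 and 0.89, while the adjusted p lies on both sides of the dashed line at 0.05.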

How the data were processed

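RNA of the IC was hybridized to Affymetrix rat gene arrays, and the log2 values used were deposited by the authors, who made them with RMA, in a version not given in the sources used here. All columns of sample values were used. The methods text counts other numbers of stimulated rats than the labels, which were followed. Of 29214 probe sets, 15310 carried 1 gene symbol, 323 several and 13581 none in the platform annotation, 15279 matched a rat gene table by gene ID and 0 symbols were updated. The brightest probe set stood for each of 527 genes with several, which left 14506 genes. No genome coordinates of probe sets are given. Strains were compared within stimulated and within naïve arrays with limma 3.58.1 in R 4.3.3 (a mean per group over 15 arrays, Benjamini-Hochberg adjustment over all genes, threshold 0.05). The step was checked on simulated data. The SAM test and the fold rule of the methods differ from this: SAM was not run, and the fold rule is one of the alternatives. The other alternatives changed the arrays, batch terms, probe sets, priors and normalization. The 9 genes and all gene lists were chosen with earlier results of these data known. All 9 genes were named, with, from each list, up to 4 genes past the threshold with the largest changes, Klf and Sp genes past it, and the 3 genes most like *Klf10*. Depth is not defined for arrays, and their number limits the precision.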

Additional observations from a re-analysis of the deposited data

Results flagged for a closer look

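Among 27 group comparisons of single arrays (9 genes in the 3 groups of 4 or 5 arrays), 2 had an array far from the rest of its group, where chance gives about 1 in 20. *Klf5* was 8.03 in WAR S replicate 4, and the nearest WAR S array had 7.34. *Klf15* was 7.08 in Wistar N replicate 1, and the nearest Wistar N array had 7.21.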

How the results depend on the processing

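Over the members and comparisons, 616 alternative values kept their direction and their side of the threshold, 19 lost the call, all of *Klf10* in stimulated rats, 9 gained one and 31 changed sign. In stimulated rats 0 members passed with the fold rule of the methods, which asks for a 2-fold change and takes p without adjustment (39 genes, against 256 in naïve rats and 189 for the difference), with a fit of the 2 groups alone (274 genes, 879 in naïve rats), with label set 1 only (14 genes, 217 in naïve rats and 0 for the difference), with the label set as a block, with all probe sets (5346 in naïve rats, more rows being tested) and with cyclic loess (42 for the difference). The difference gave 24 genes with the mean of the probe sets of a gene and 9 with a trended and robust prior. Array weights gave 2 members in each comparison, with 1433, 4667 and 3353 genes: *Klf10* (adjusted p = 0.000503) and *Klf5* (0.0262) in stimulated rats, *Klf3* (0.0116) and *Klf7* (0.0440) in naïve rats, and *Klf10* (0.0156) and *Klf3* (0.0122) for the difference.

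Replicate numbers did not pair the arrays, with correlations of −0.31 to 0.06 between same-numbered arrays. With the replicate number as a block, 0 members and 16 genes passed in stimulated rats (*Klf10* adjusted p = 0.194) and 0 genes for the difference, and *Klf6* had a difference of −0.0016.

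The changes of sign were all of values that did not pass. With label set 1 only, *Klf2* was −0.032 and *Klf13* −0.078 in stimulated rats, *Klf10* 0.0070 in naïve rats, and *Klf4* −0.015 for the difference. With label set 2 only, an alternative chosen after seeing the data, *Klf13* was 0.24 and *Klf15* 0.064 in naïve rats. The difference of *Klf4* was −0.047 with the label set as a block, and *Klf4* in naïve rats was −0.017 with the mean of its probe sets. Array weights gave −0.0078 for *Klf13* in stimulated rats, −0.015 for *Klf6* and 0.10 for *Klf13* in naïve rats, and −0.0056 for *Klf4* and −0.11 for *Klf13* for the difference. Cyclic loess gave −0.011 for *Klf6* in naïve rats and 0.0075 for *Klf2* for the difference. The cause of these changes was not tested.

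With each array left out in turn, 0 to 1 members and 7 to 261 genes passed in stimulated rats, 0 to 2 members and 1987 to 5968 genes in naïve rats, and 0 to 2 members and 0 to 2956 genes for the difference. The highest counts were those without Wistar N replicate 1, and the lowest in stimulated rats that without Wistar S replicate 2. Changes of sign gave a range of −0.28 to 0.031 for *Klf3* in stimulated rats. In naïve rats the ranges were −0.00028 to 0.18 for *Klf4*, −0.14 to 0.17 for *Klf13* and −0.081 to 0.037 for *Klf15*. For the difference they were −0.16 to 0.042 for *Klf2*, −0.071 to 0.11 for *Klf4*, −0.00075 to 0.086 for *Klf6* and −0.083 to 0.23 for *Klf13*. Signal over background could not be recomputed from processed values, and 2 Wistar S arrays limit every stimulated comparison.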
